A study of Bos taurus with 16 samples.

Results

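Short noncoding RNAs from 60 to just under 110 bp long were examined in the whole blood of beef steers. They were chosen by 3 properties of the deposited tables. The first was an Ensembl identifier number from 42000 to below 46000, a block used for older noncoding genes, without the stretch of the mitochondrial genes. The second was a gene length of at least 60 and under 110 bp, which was recovered from the ratio of the normalized count to the FPKM, a measure of fragments per kilobase of gene scaled for depth. The third was a raw count of at least 10 in at least 8 of the 16 steers. This left 22 of the 27607 genes listed. The block held 2164 genes, of which 931 had a count in any steer and therefore a length, and the length of the other 1233 could not be recovered. Of the 274 genes of this length with a count, 243 reached 10 counts in no steer, 9 reached them in 1 to 7 steers, and 22 (8.03%) met the rule.

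Blood RNA was sequenced from 16 crossbred beef steers fed a high-forage diet, 8 labelled high-RFI and 8 labelled low-RFI. RFI, residual feed intake, is the difference between what an animal eats and what its weight and gain predict, so that a high value marks an inefficient steer. For each steer, blood of 3 days was composited into 1 library, made from total RNA after removal of ribosomal and globin RNA. The steers were the extremes of a larger group fed together, and received no treatment or genetic change, and breed, pen and sequencing batch are not given per steer.

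RNAs of this size are several kinds of molecule. Box C/D small nucleolar RNAs, mostly cut from introns of host genes, bind fibrillarin and guide 2′-O-methylation of ribosomal and other RNAs. MicroRNA hairpins are precursors that Drosha and Dicer process to short mature strands that repress messenger RNAs, and U6, a small nuclear RNA of the spliceosome, also has many genomic copies in this size range. The length alone does not tell these kinds apart, and the tables used here pair no identifier with a name, so the genes are given by identifier and their sequences and functions were not analysed here.

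The libraries held 7.08 to 9.98 M counts on genes in high-RFI and 4.80 to 12.2 M in low-RFI steers. The shallowest was that of low-RFI steer 4, at 4.80 M. The study's table of reads per steer did not match the labels by name. Ordered by depth, 6 of 8 low-RFI steers had the same rank as the sample listed in their place under the name High, and 6 of 8 high-RFI steers as the one under Low, with ranks at most 1 apart. With like names paired, 0 of 8 high-RFI and 2 of 8 low-RFI steers had the same rank, and ranks were up to 7 apart. The sample titles begin with HFE in high-RFI and LFE in low-RFI steers, letters that are not spelled out. Read as high and low feed efficiency, they would also be the reverse of the labels. All directions below are those of the labels and would turn round under the names of the table of reads.

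The short RNAs were counted few times but stood high per length. Raw counts lay between 0 and 89 in a steer, with a single value of 0. The mean normalized count over 16 steers, which is the raw count divided by 1 size factor per steer, was between 9.67 and 61.5 with a median of 21.2, below the median of 44.2 over all genes with a count. On the FPKM scale, which divides by length, the 22 means ran from 13.2 to 87.6 with a median of 31.3, against 3.04 over all genes with a count. Their FPKM ranks lay between the 73.7th and 96.4th percentile of those genes. The 51 noncoding RNAs of 110 to 200 bp that were chosen by the same block and count rule had a median FPKM of 30.1. As the rule set a minimum count and the length enters FPKM, these levels describe the choice and carry no test.

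Most of the 22 were 80 to 89 bp long, and their median length was 82.5 bp. Of genes with a count, the class of 60 to 69 bp gave 0 of 16, that of 70 to 79 bp 5 of 66, and that of 80 to 89 bp 13 of 51. The class of 90 to 99 bp gave 2 of 38, and that from 100 bp up 2 of 103. The median FPKM was 25.8 at 70 to 79 bp, 32.5 at 80 to 89 bp, 18.6 at 90 to 99 bp and 23.2 from 100 bp up.

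At the edge of the count rule, ENSBTAG00000043377 (98 bp) was inside with at least 10 counts in 8 steers, 5 high-RFI and 3 low-RFI, and ENSBTAG00000043472 (86 bp) with 10 steers, 7 high-RFI and 3 low-RFI. ENSBTAG00000042607 (71 bp) was outside with 7 steers and a mean normalized count of 8.44, and ENSBTAG00000042357 (96 bp) with 6 steers and a mean of 7.87. Over the 22 genes, 9 had more high-RFI than low-RFI steers at the minimum and 3 had fewer, and 0 met the rule through high-RFI steers only.

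ENSBTAG00000042377 (85 bp) had the highest level. Its raw counts were 33 to 89 and its FPKM was 87.6 ± 18.7 (SD, n = 16), between 55.7 and 130 in single steers. ENSBTAG00000042741 (70 bp) followed with 50.9 ± 14.3 FPKM, then ENSBTAG00000045235 (83 bp) with 44.7 ± 9.50, ENSBTAG00000042974 (82 bp) with 40.0 ± 20.4 and ENSBTAG00000042786 (82 bp) with 39.2 ± 9.68. The gap between the first and the second exceeded the SD of either, whereas each further neighbour differed from the next by less than 1 SD. ENSBTAG00000043480 (84 bp) had 34.2 ± 8.98 FPKM, and the remaining 4 of the highest 10 were the 80 bp genes described next. Ranked by the median in place of the mean, 9 of these 10 stayed among the highest 10.

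**Figure D1:**
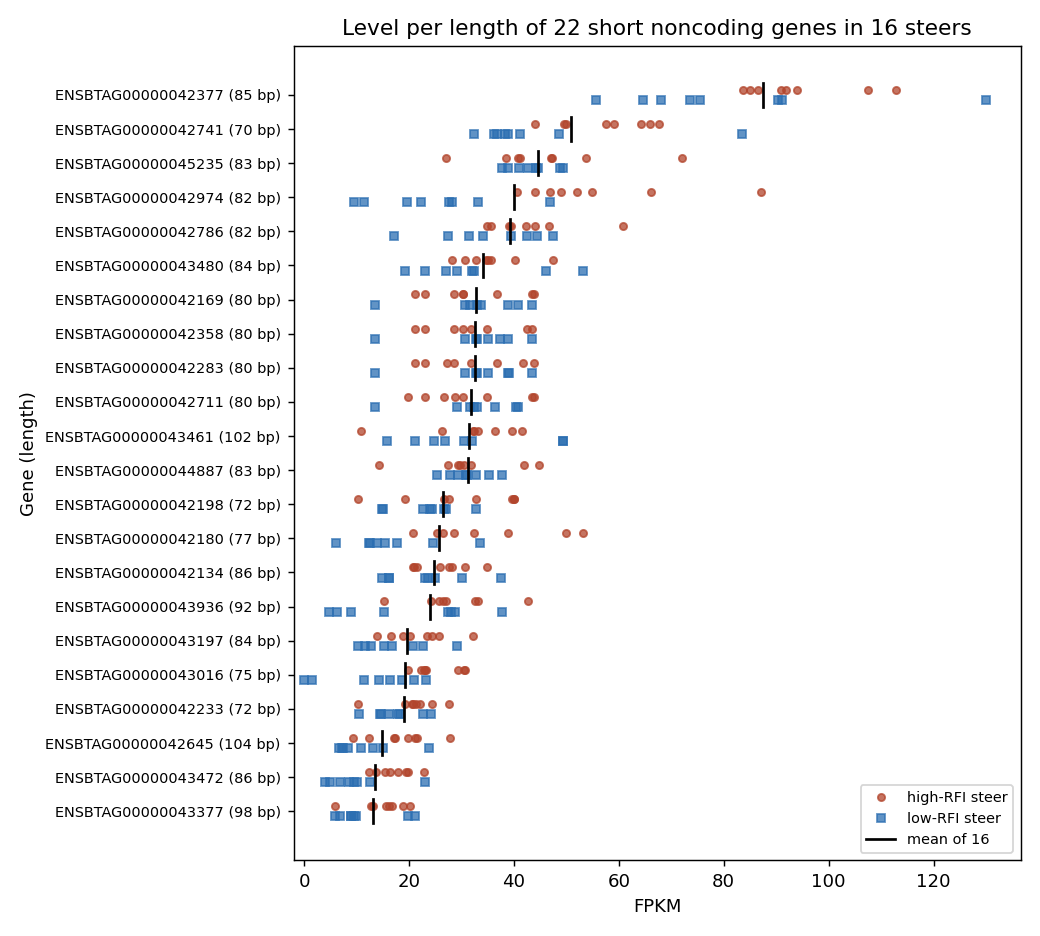
FPKM (horizontal axis) of each of the 22 short noncoding genes (rows, with length) in the 16 steers; circles are high-RFI steers, squares low-RFI steers, and the vertical line is the mean of 16. ENSBTAG00000042377 stands above the rest at 87.6, and in each gene the groups overlap.

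ENSBTAG00000042169, ENSBTAG00000042283, ENSBTAG00000042358 and ENSBTAG00000042711, all 80 bp, carried nearly the same counts. With ENSBTAG00000054586, also 80 bp but outside the identifier block, they had 10 to 34 raw counts per steer. Within a steer the 5 genes differed by at most 2 counts, by at most 1 in 12 steers, and were equal in 2 steers. The summed difference between any 2 of them was 0.571% to 4.11% of the counts, where 2 independent genes of this level would differ by 23.8% from counting error. They are therefore uncertain as separate genes, and they are taken once only where this is stated. Elsewhere all 4 enter the counts of genes and the shares. The sources used here do not give how reads with several alignments were counted, and the part of such reads was not tested. ENSBTAG00000045235 was likewise within 4.76% of ENSBTAG00000050660, an 83 bp gene that is not in the block. With a summed difference of up to 10% taken as near-identical, the 22 genes gave 19 measures. Whether genes less alike share reads was not tested. An example is ENSBTAG00000044887 and ENSBTAG00000045235, both 83 bp, with a Pearson r of log2(normalized count + 1) of 0.863.

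The steers differed in the level of the short RNAs as a whole. The 22 genes held 0.00616% ± 0.000442 of all counts on genes in high-RFI steers (SD, n = 8), between 0.00547% and 0.00689%. In low-RFI steers they held 0.00526% ± 0.00116 (SD, n = 8). The lowest share, 0.00333% (95% Wilson interval 0.00298 to 0.00372, counting error only), was that of low-RFI steer 5, and the highest, 0.00721% (0.00664 to 0.00783), that of low-RFI steer 7. The low-RFI steers therefore enclosed all high-RFI steers. With the 80 bp genes taken once, the shares were 0.00541% ± 0.000434 in high-RFI and 0.00445% ± 0.000978 in low-RFI steers (SD, n = 8 each). Low-RFI steer 5 was among the lowest 3 steers for 16 genes, the 4 genes of 80 bp among them, low-RFI steer 8 for 10 and low-RFI steer 4 for 9. In whole blood, fewer cells of a type and less RNA per cell cannot be told apart.

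Counting error accounted for a large share of the spread between steers. The coefficient of variation of the normalized counts over 16 steers was between 21.3% and 52.1% with a median of 27.3%, against 29.7% for the 3558 genes in the same range of counts. The variance divided by that of counting error had a median of 1.72. It was 2.06 in those 3558 genes, which were matched by the range of counts only. In the 51 RNAs of 110 to 200 bp, which were not matched in level, it was 2.61. The ratio was below 2 in 14 of the 22 genes. ENSBTAG00000044887 (83 bp) was at 1.02, so that its 9 to 35 counts per steer varied about as much as counting alone gives, and ENSBTAG00000042233 (72 bp) was at 0.744. Of those 3558 genes 31.2% exceeded a ratio of 3, and 4 of the 22 did. These were ENSBTAG00000042974 with 6.73, ENSBTAG00000042180 (77 bp) with 4.39, ENSBTAG00000043936 (92 bp) with 3.71 and ENSBTAG00000043461 (102 bp) with 3.23. ENSBTAG00000042377, which has the most counts, was at 2.95.

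**Figure D2:**
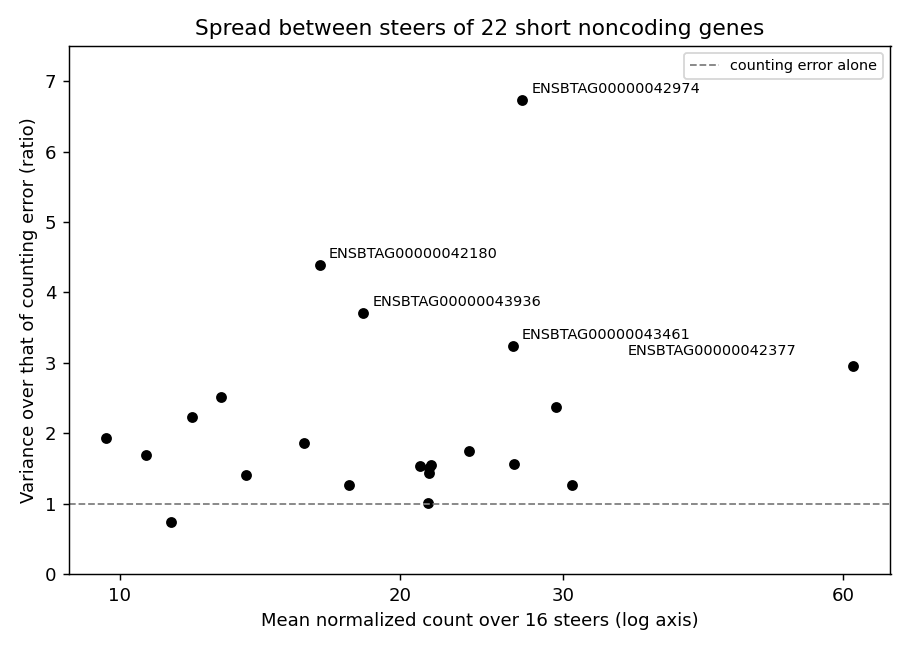
Variance over 16 steers divided by the variance of counting error (vertical axis) against the mean normalized count (horizontal log axis) for each of the 22 genes, the dashed line marking counting error alone. ENSBTAG00000042974 is highest at 6.73, and 14 genes lie below 2.

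The comparison of high-RFI with low-RFI steers asked which short RNAs go with feed efficiency. ENSBTAG00000042974 showed the largest difference in the fits on counts, edgeR and DESeq2. In high-RFI steers its normalized counts had a minimum of 27.6, a median of 34.2 and a maximum of 59.1, and in low-RFI steers 6.44, 16.9 and 31.8. High-RFI steers were thus higher, 5 of 8 stood above every low-RFI steer and 7 of 8 low-RFI steers below every high-RFI steer, and the groups overlapped through 1 low-RFI steer. Its group means were 37.3 ± 10.2 and 16.9 ± 8.21 (SD, n = 8 each). The two-sided exact permutation test of log2(normalized count + 1) gave p = 0.000622. This p and the permutation p below are not adjusted for the number of genes. Genes named for their edgeR p were picked in the same steers, so for them the permutation p is no separate support. The edgeR log2 fold change was 1.12 (unadjusted p = 0.000372), with an adjusted p of 0.748. DESeq2 gave a log2 fold change of 1.12 with a standard error of 0.25 and an adjusted p of 0.0435. It was the single gene of the 22 that DESeq2 called. Of all 21016 genes with a count, 7 (0.0333%) were called, and any gene that DESeq2 gave no adjusted p stays in that total. Leaving out 1 steer at a time, DESeq2 called ENSBTAG00000042974 in 5 of 16 fits, with an adjusted p between 0.00209 and 0.207. In the same way edgeR called it in 0 of 16, with log2 fold changes between 0.99 and 1.30.

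ENSBTAG00000042180 had normalized counts of 13.2, 19.5 and 33.9 (minimum, median and maximum) in high-RFI steers and 3.87, 9.34 and 21.4 in low-RFI steers. The high-RFI steers were again higher, 3 of them stood above every low-RFI steer, and 6 low-RFI steers lay below every high-RFI steer. The exact two-sided permutation test gave p = 0.00311, and the edgeR log2 fold change was 0.99 (unadjusted p = 0.00256), with an adjusted p of 0.926.

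ENSBTAG00000043016 (75 bp) had normalized counts of 12.3, 14.4 and 19.0 in high-RFI and 0, 9.52 and 14.4 in low-RFI steers. Its high-RFI values were closely grouped, 15.7 ± 2.63 (SD, n = 8), while the low-RFI steers spread down to 0 counts. The 0 was in steer 4, where a count of 0 allows up to 3, and steer 8 had 1 count. The library of steer 4 was the shallowest of all, with 4.80 M counts on genes, and that of steer 8 held 8.40 M. The exact two-sided permutation test gave p = 0.00155. The edgeR log2 fold change was 0.83 (unadjusted p = 0.0295), with an adjusted p of 0.941. It was larger on other scales, 1.40 on log2(FPKM + 1) and 1.90 on log2(FPKM + 0.1) in limma, where it exceeded that of ENSBTAG00000042974 (1.23 and 1.27). The limma adjusted p of ENSBTAG00000043016 was 0.871 and 0.909 there. The gene reached 10 counts in 8 high-RFI and 4 low-RFI steers, so the high-RFI steers alone would have met the count rule. Rule and difference rest on the same counts, so its p-values carry no separate weight.

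ENSBTAG00000042645 (104 bp) had 8.04, 16 and 23.8 normalized counts in high-RFI and 5.80, 8.25 and 20.5 in low-RFI steers. The groups overlapped over most of their range, with 1 high-RFI steer above all low-RFI steers and 4 low-RFI steers below all high-RFI steers. Its edgeR log2 fold change was 0.65 (unadjusted p = 0.0286), with an adjusted p of 0.941, and the exact two-sided permutation p was 0.0273.

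ENSBTAG00000042741, second in level, had 25.5, 33.8 and 39.1 normalized counts in high-RFI and 18.7, 22.4 and 48.3 in low-RFI steers. Of the low-RFI steers 6 lay below every high-RFI steer, and 1, steer 7, above all of them. The exact two-sided permutation p was 0.0323, and the edgeR log2 fold change was 0.37 with an unadjusted p of 0.0607.

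ENSBTAG00000043472 was left out of the edgeR fit by its filter on low counts. It had 8.78, 12.2 and 16.2 normalized counts in high-RFI and 2.90, 6.45 and 16.4 in low-RFI steers, with 6 low-RFI steers below every high-RFI steer and steer 7 above them all. DESeq2, which kept it, gave a log2 fold change of 0.79 with a standard error of 0.32 and an adjusted p of 0.984. The exact two-sided permutation p, unadjusted, was 0.00653. The gene reached 10 counts in 7 high-RFI and 3 low-RFI steers, so it met the count rule mainly through the group where it was higher. Rule and difference rest on the same counts, so this p carries no separate weight.

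**Figure D3:**
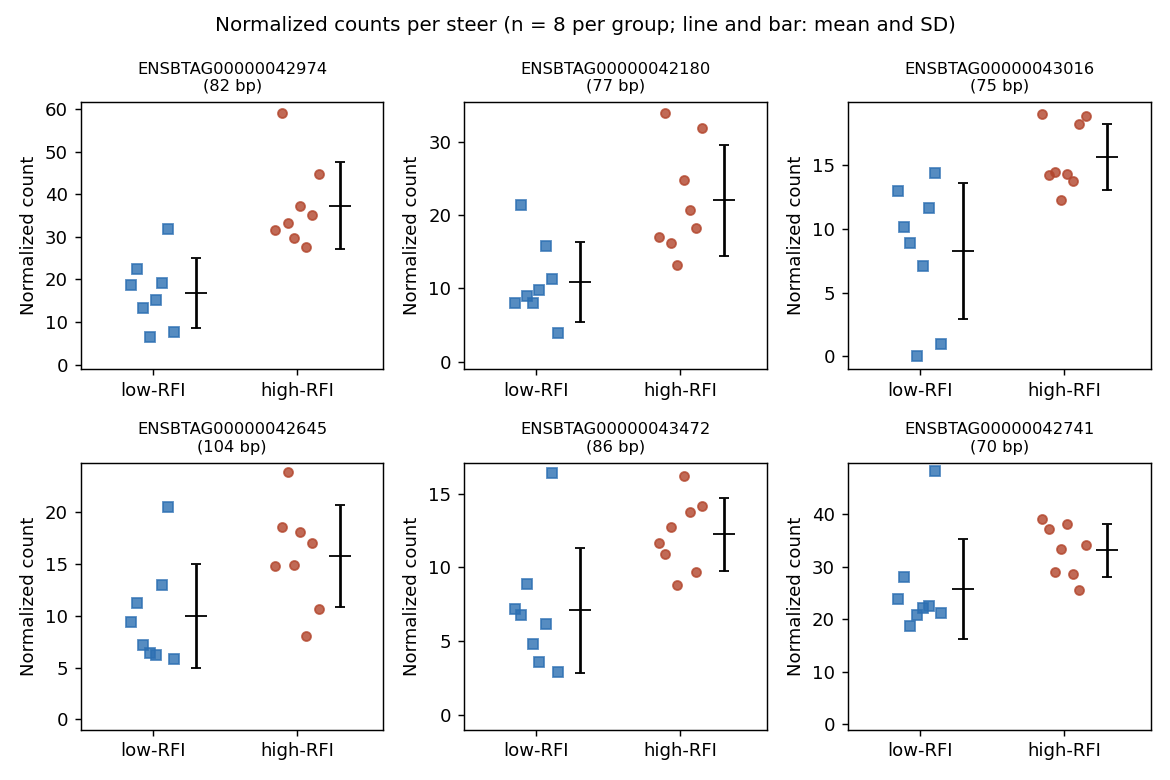
Normalized count per steer (vertical axes) of 6 short noncoding genes in 8 low-RFI (squares) and 8 high-RFI steers (circles), with the mean and SD beside each group. ENSBTAG00000042974 overlaps through 1 low-RFI steer at 31.8, and in ENSBTAG00000042741 and ENSBTAG00000043472 low-RFI steer 7 is the highest of all 16.

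The 4 RNAs with the 80 bp count pattern did not separate the groups. ENSBTAG00000042169 had 14, 20.1 and 29.0 normalized counts in high-RFI and 8.89, 22.1 and 28.8 in low-RFI steers. The edgeR log2 fold changes of the 4 genes were between -0.06 and -0.03, the smallest unadjusted p being 0.778 for ENSBTAG00000042283. ENSBTAG00000044887 was at 21.4 ± 6.36 in high-RFI and 21.5 ± 2.70 in low-RFI steers (SD, n = 8 each), with an edgeR log2 fold change of -0.00. The DESeq2 standard error of that difference was 0.20 on the log2 scale. Similarly, ENSBTAG00000045235 was at 31.5 ± 8.99 and 29.8 ± 2.89, and ENSBTAG00000042377 at 66.1 ± 7.49 and 57.0 ± 16.3, with exact two-sided permutation p of 0.789 and 0.106.

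In all, 21 of the 22 genes were tested in edgeR among 13265 genes. At an FDR of 0.05, 0 of them were called, as were 0.0% of all genes, and 1 of 22 was called by DESeq2. At an unadjusted p under 0.05, 4 were higher in high-RFI steers, where 2.77% of all genes were, and 0 were lower, where 2.45% were. DESeq2 placed 5 of 22 at that threshold, all higher, where of all 21016 genes it placed 451 higher and 411 lower. On the log2 scale of edgeR, 16 of 21 were higher in high-RFI steers and 5 lower, with a median difference of 0.27. Over all genes tested 50.6% were higher, with a median of 0.0016. With the 80 bp genes taken once, 16 of 18 were higher with a median of 0.29.

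The genes at that threshold all fell below 10 counts in some steers, and all reached 10 in more high-RFI than low-RFI steers. Of the 10 genes with at least 10 counts in every steer, 6 were higher and 4, the 80 bp genes, lower, with a median log2 difference of 0.09 and 0 at an unadjusted p under 0.05. The 4 genes with a variance more than 3 times that of counting error had a median difference of 0.74, and 2 of them were at that threshold. These subsets were chosen from the same counts, so their differences carry no test.

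**Figure D4:**
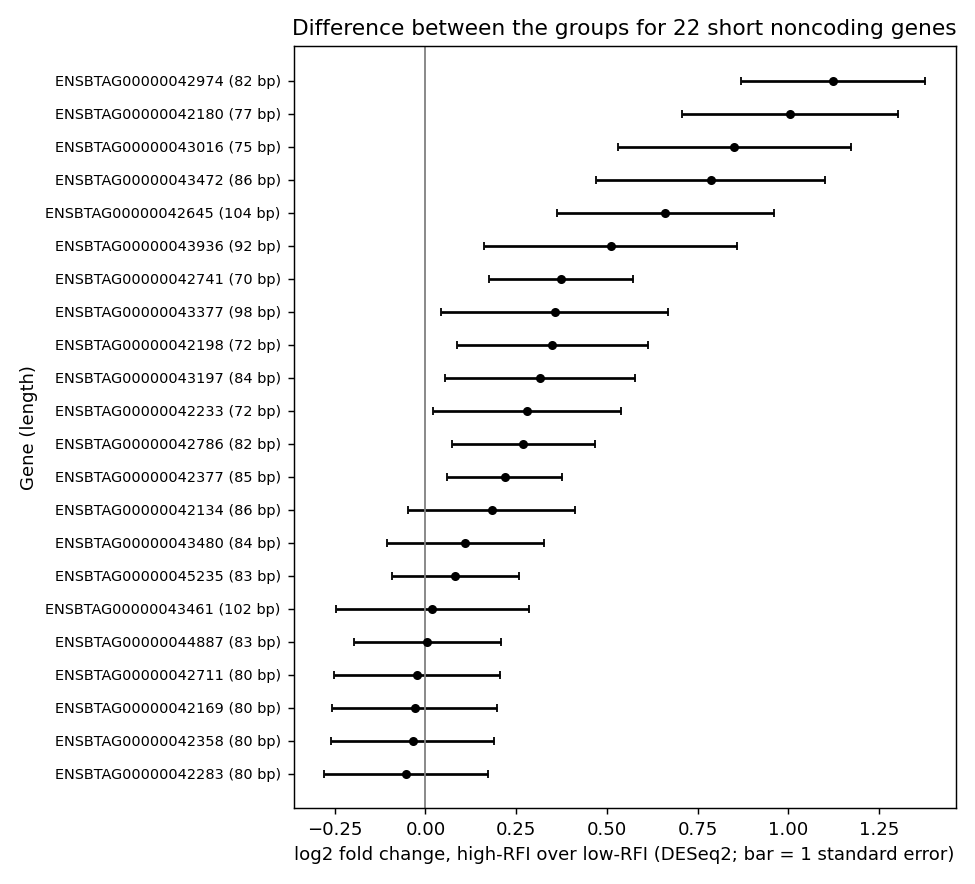
DESeq2 log2 fold change of high-RFI over low-RFI steers (horizontal axis) for the 22 genes (rows, with length), with bars of 1 standard error. ENSBTAG00000042974 is highest at 1.12, and the 4 genes of 80 bp lie lowest, just below 0.

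The level of longer noncoding RNAs moved with several of these genes. The mean log2(normalized count + 1) of the 51 RNAs of 110 to 200 bp was 5.38 ± 0.19 in high-RFI and 5.09 ± 0.42 in low-RFI steers (SD, n = 8 each), from 4.26 in low-RFI steer 4 to 5.67. When edgeR was fitted with group and this level as terms, a choice made after the data were examined, 19 of 21 short genes had a positive slope. The median slope was 0.60 log2 units per log2 unit of the longer RNAs. It was 0.0046 over the 13215 genes in that fit other than the longer RNAs, of which 50.8% were positive. At an unadjusted p under 0.05, 5 of 21 had a positive slope, where 4.4% of all genes did, and at an FDR of 0.05 it was 1 of 21, where 0.129% did. That gene was ENSBTAG00000042974, with a slope of 1.56 (edgeR adjusted p = 0.0478). Without 1 steer at a time its slope was 1.41 to 1.72 and the adjusted p 0.0446 to 0.471. ENSBTAG00000043936 had a steeper slope, 2.18, with an edgeR adjusted p of 0.0521. The adjustment of the slopes took in the longer RNAs themselves, which make up the level, and such genes can lower the adjusted p of others. An adjustment without them was not made, so the call at an FDR of 0.05 carries no weight.

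The 80 bp genes had slopes of 0.03 to 0.06, which ran from -0.19 to 0.42 when 1 steer at a time was left out, and ENSBTAG00000044887 and ENSBTAG00000045235 had negative ones, -0.43 and -0.31, with edgeR adjusted p of 0.652 and 0.718. Differences between the slopes of single genes were not tested. With the longer RNAs in the fit, the group difference of ENSBTAG00000042974 was 0.78 on the log2 scale (edgeR unadjusted p = 0.000462, adjusted p = 0.9999) and that of ENSBTAG00000042180 was 0.77 (0.0163). Those of ENSBTAG00000042645 and ENSBTAG00000043016 were 0.35 and 0.56, with edgeR unadjusted p of 0.133 and 0.108. The mean level of the longer RNAs was lower in low-RFI steers by less than the SD of that group, the difference was not tested, and neither was what sets that level.

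**Figure D5:**
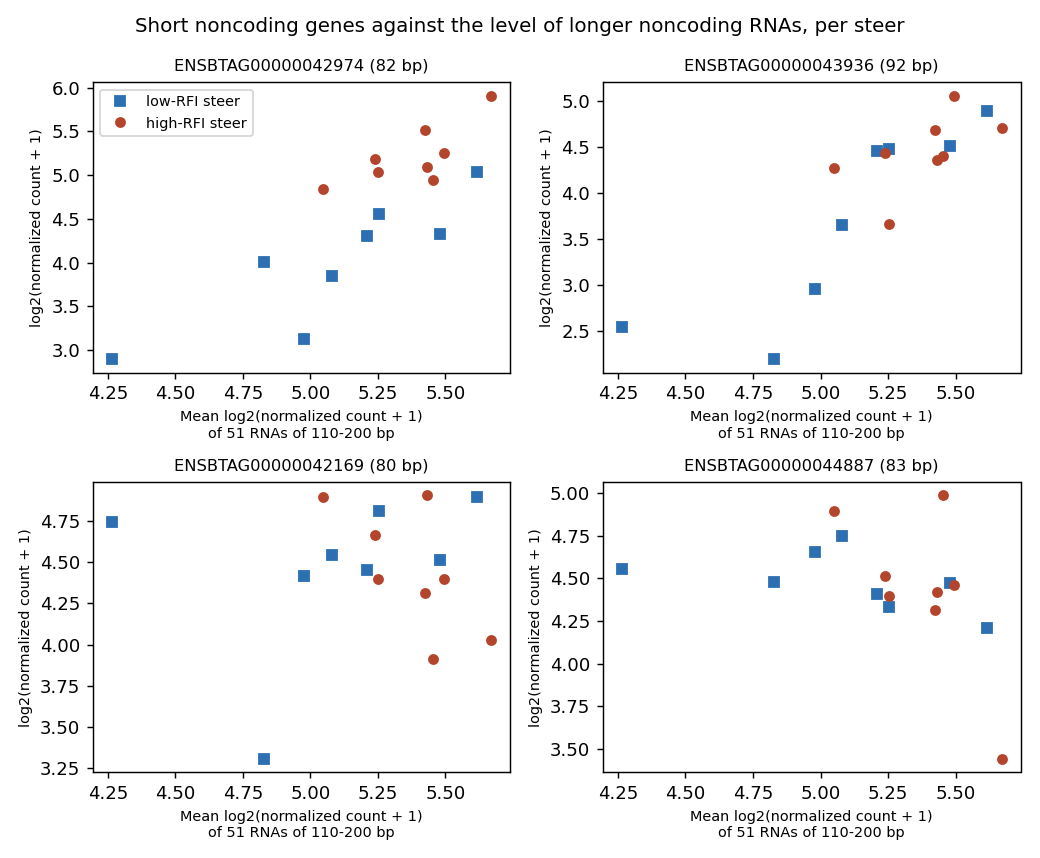
log2(normalized count + 1) of 4 short noncoding genes (vertical axes) against the mean of the same measure over 51 RNAs of 110 to 200 bp (horizontal axes), 1 point per steer (squares low-RFI, circles high-RFI). The edgeR slopes are 1.56 for ENSBTAG00000042974, 2.18 for ENSBTAG00000043936, 0.03 for ENSBTAG00000042169 and -0.43 for ENSBTAG00000044887.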

How the data were processed

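Whole-blood RNA-seq of 16 steers, 1 library each, was grouped by the labels, with replicate numbers from the sample titles. Per the paper and the submitters' processing notes, the authors trimmed reads (Trimmomatic 0.39), aligned them to ARS-UCD1.2 (HISAT2 2.2.1), marked duplicates with SamTools and counted them per gene with GenomicAlignments. For annotation, strand, counting mode and the fate of duplicates, nothing is stated in the sources used here. Deposited were raw counts, normalized counts, a signal that the authors obtained by dividing counts by 1 size factor per steer (0.622 to 1.46), and FPKM made from the normalized counts. Lengths recovered from these were whole to 0.001 bp for 100% of genes with a count.

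The deposited raw counts were compared across all genes in edgeR 4.0.16 (quasi-likelihood test, TMM, filterByExpr, Benjamini-Hochberg), and with DESeq2 1.42.0 and limma 3.58.1 in R 4.3.3 as alternatives. The fits were tested on simulated data. P-values set the group difference or the slope against the spread between steers, and intervals cover counting error only.

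The genes and lists were chosen with earlier results of these data known. Genes named were the 10 highest in FPKM, the 5 of smallest edgeR p in each direction, those at the edge of the count rule and those DESeq2 called. Naming by coefficient of variation was void, as 1 gene reached a mean of 50 counts. Other genes are named after their values were seen. A RefSeq gene table (ARS-UCD2.0) held none of these identifiers, so symbols, sequences, blood cell markers and lists of small-RNA proteins were not analysed here.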

Additional observations from a re-analysis of the deposited data

Results flagged for a closer look

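Within a group of 8 steers, the gap between the highest or lowest steer and its neighbour was divided by the range of the group and held against Dixon's critical value. Of 50 groups examined, 7 passed it, where chance flags about 1 in 20. Low-RFI steer 5 stood below the other low-RFI steers in the 4 RNAs of 80 bp that carry 1 count pattern and so are 1 event. It had 8.89 normalized counts in ENSBTAG00000042169, ENSBTAG00000042283 and ENSBTAG00000042358, with the next steer at 20.3 in each, and 8.89 in ENSBTAG00000042711, with the next at 19.3. Low-RFI steer 7 stood above its group in ENSBTAG00000042741, at 48.3 with the next at 28.1, and in ENSBTAG00000043472, at 16.4 with the next at 8.91. High-RFI steer 16 stood above its group in ENSBTAG00000042786, at 41.3 with the next at 31.7.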

How the results depend on the processing

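No paired analysis was possible because the groups share no replicate number. Of 15 named genes with an edgeR value, 5 kept the sign of their log2 fold change under every alternative and 10 did not. The causes were not tested. The covariate, the slopes and the DESeq2 fits without 1 steer were chosen once the data had been seen. With 10 counts required in all 16 steers, 10 genes were left of 22. Genes at FDR 0.05 went from 0 in edgeR to 1 in DESeq2, and without 1 steer at a time DESeq2 called 0 to 1. Genes at an unadjusted p under 0.05 went from 4 to 2 both when libraries were scaled to the short RNAs and with the longer RNAs as covariate. They went to 3 to 7 without 1 steer (7 without high-RFI steer 15). All of them were higher in high-RFI steers. Of all 13265 genes, 368 were higher and 325 lower at that threshold in the main fit. The scaling gave 13 and 7330, and the covariate 267 and 273. Without high-RFI steer 15, 378 of 13390 were higher and 320 lower. Scaling to the short RNAs, which by construction centres them and put the median of all genes at -0.42, left 6 of 21 higher and a median of -0.10. Under it ENSBTAG00000042377 (-0.13), ENSBTAG00000042786 (-0.10), ENSBTAG00000043377 (-0.016), ENSBTAG00000043480 (-0.24) and ENSBTAG00000045235 (-0.33) turned lower. So did ENSBTAG00000043480 with the covariate (-0.028) and ENSBTAG00000045235 in limma voom with sample quality weights (-0.0094). ENSBTAG00000044887 turned higher with median-of-ratios factors (0.00074), with no filter (0.0018), in DESeq2 (0.0055) and with the covariate (0.11). Without 1 steer, log2 fold changes ran from -0.16 to 0.034 in ENSBTAG00000042169, -0.18 to 0.0085 in ENSBTAG00000042283, -0.16 to 0.028 in ENSBTAG00000042358, -0.15 to 0.047 in ENSBTAG00000042711, -0.10 to 0.10 in ENSBTAG00000044887 and -0.035 to 0.16 in ENSBTAG00000045235. With the longer RNAs kept in the adjustment, genes with a positive slope at FDR 0.05 went from 1 to 0 with no filter. They were 0 to 1 without 1 steer at a time. The median slope went from 0.60 to 0.29 without low-RFI steer 7 and 0.90 without low-RFI steer 4. ENSBTAG00000042974 kept its direction throughout, with adjusted p of 0.0691 in limma voom with sample quality weights, and a log2 fold change of 0.80 (edgeR adjusted p 0.0582) when scaled to the short RNAs. Its adjusted p with all steers was 0.0435 to 0.846 without the covariate and 0.9999 with it. At 0 to 89 counts per gene and steer, the DESeq2 standard errors were 0.16 to 0.35 on the log2 scale. A difference over 2 standard errors could go uncalled, as in ENSBTAG00000043016 (0.85 with 0.32), while ENSBTAG00000042974 (1.12 with 0.25) was called.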

Other observations

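The genes closest to each short RNA over the 16 steers, other than the near-identical copies described above, by Pearson correlation of log2(normalized count + 1) among 13364 genes with a mean count of at least 10, were looked up after the data were examined. With those copies left out, the highest r for each of the 22 was between 0.795 and 0.913. These values share libraries and low counts, are the highest of many, and carry no test. Among the genes that are no such copy, the closest was at most 200 bp long for 7 of the 22, and such genes made up 1.17% of those searched. ENSBTAG00000042974 and ENSBTAG00000043016 had the same closest gene, ENSBTAG00000042916 of 144 bp, with r of 0.912 and 0.913. ENSBTAG00000042645 was closest to ENSBTAG00000042408 of 127 bp (0.864), and ENSBTAG00000043936 to ENSBTAG00000053112 of 126 bp (0.900). The most abundant short RNAs, ENSBTAG00000042377 and ENSBTAG00000042741, were closest to each other (0.839). ENSBTAG00000044887 was closest to ENSBTAG00000045235 (0.863), and ENSBTAG00000045235 itself, its copy ENSBTAG00000050660 left out, to ENSBTAG00000054224 of 1726 bp (0.904). For the other 15, again without copies, which for the 4 genes of 80 bp are 80 bp long themselves, the closest gene was over 200 bp long, such as ENSBTAG00000015911 of 2201 bp for ENSBTAG00000043461 (0.880) and ENSBTAG00000021587 of 1959 bp for ENSBTAG00000043197 (0.873).

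Among genes outside the count rule, ENSBTAG00000042479 (76 bp) was noticed after its values were seen. Its raw counts were 0 to 10. It had 2.63, 7.05 and 10.9 normalized counts (minimum, median and maximum) in high-RFI and 0, 1.25 and 4.11 in low-RFI steers, and 7 of 8 high-RFI steers stood above every low-RFI steer. As it was picked for this pattern, it carries no test. A further 11 genes from 60 to under 110 bp passed the count rule with identifiers outside the block and were not described.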
